A study of Mus musculus with 12 samples.

Results

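The genes described here are markers of blood vessels, lymphatic vessels and pericytes. The 36 members were chosen by name, and each was read from its brightest probe set by the mean of the 12 arrays, among those annotated with that gene symbol alone. All 36 were measured, out of 18193 genes on the array table. RNA came from tumours that 3 mouse lung adenocarcinoma lines had formed in syngeneic mice, and the comparison asks how far vessel genes differ between tumours of unlike metastatic potential. 344SQ, labelled highly metastatic, was grown from a subcutaneous site of mouse 344. 393LN, labelled as intermediate, came from a mediastinal lymph node of mouse 393, and 393P, labelled non-metastatic, from a primary lung tumour of that same mouse. Both mice carried the genotype p53R172H∆g/+ K-rasLA1/+, a mutant p53 allele together with an activated K-ras allele, so all 3 lines share it. Each line is a mass population of cultured tumour cells from 1 mouse. Metastatic potential, site of origin and, for 344SQ, mouse of origin therefore cannot be told apart. Each line has 4 arrays. The labels do not say whether these are tumours of separate animals, so p-values measure only the spread between these samples, which may be technical.

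Blood vessels are tubes of endothelial cells, held together by junction proteins such as VE-cadherin and wrapped by contractile pericytes. Angiopoietins are secreted ligands of the receptor kinase Tie2, which keeps vessels quiescent when it is active, and the vascular phosphatase encoded by Ptprb removes phosphate from it. Lymphatic vessels are lined by a related endothelium that depends on the transcription factor Prox1. In tumours grown from a cell line, endothelium and pericytes are in the main host cells. In whole tumours, fewer cells of a type and less RNA per cell cannot be told apart.

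Promoter sequences of 6 members are printed so that the shared sequence letters of vessel genes can be seen beside their values. Tie1, Tek, Eng, Cd34 and Robo4 are the broadly endothelial members with a single start site in the table used, and Mcam is the one member with a test result past the threshold that has an entry there. Each sequence is the 250 bases before the start site on the gene's own strand, from RefSeq on GRCm38.p6. Capitals mark AGGAAG or CGGAAG on either strand, forms of the core bound by ETS transcription factors, the family of the endothelial factor Erg.
Tie1, chr4:118489850-118490099, minus strand: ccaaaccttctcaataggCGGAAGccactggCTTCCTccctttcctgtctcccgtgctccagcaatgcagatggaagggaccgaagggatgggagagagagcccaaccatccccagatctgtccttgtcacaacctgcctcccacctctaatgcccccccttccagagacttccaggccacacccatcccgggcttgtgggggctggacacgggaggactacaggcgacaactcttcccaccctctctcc
Tek, chr4:94739039-94739288, plus strand: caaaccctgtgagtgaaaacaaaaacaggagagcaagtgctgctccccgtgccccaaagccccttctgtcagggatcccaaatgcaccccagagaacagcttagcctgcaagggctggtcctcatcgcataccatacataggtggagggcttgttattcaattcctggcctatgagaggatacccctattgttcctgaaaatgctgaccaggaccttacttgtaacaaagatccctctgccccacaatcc
Eng, chr2:32646345-32646594, plus strand: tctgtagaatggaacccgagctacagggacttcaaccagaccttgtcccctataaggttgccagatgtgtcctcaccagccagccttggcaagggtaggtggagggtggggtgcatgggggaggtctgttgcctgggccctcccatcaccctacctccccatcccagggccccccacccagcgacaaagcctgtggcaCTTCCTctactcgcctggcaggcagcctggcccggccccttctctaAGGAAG
Cd34, chr1:194938571-194938820, plus strand: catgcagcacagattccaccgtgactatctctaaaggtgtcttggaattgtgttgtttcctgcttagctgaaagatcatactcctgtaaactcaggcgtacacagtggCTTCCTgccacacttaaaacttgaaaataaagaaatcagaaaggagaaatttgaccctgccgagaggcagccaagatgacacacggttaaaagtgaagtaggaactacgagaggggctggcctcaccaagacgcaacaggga
Robo4, chr9:37401722-37401971, plus strand: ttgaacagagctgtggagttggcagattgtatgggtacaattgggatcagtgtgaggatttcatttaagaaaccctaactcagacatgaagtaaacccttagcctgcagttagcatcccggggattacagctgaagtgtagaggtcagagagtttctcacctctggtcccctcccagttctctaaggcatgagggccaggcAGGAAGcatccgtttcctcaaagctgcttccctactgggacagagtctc
Mcam, chr9:44134408-44134657, plus strand: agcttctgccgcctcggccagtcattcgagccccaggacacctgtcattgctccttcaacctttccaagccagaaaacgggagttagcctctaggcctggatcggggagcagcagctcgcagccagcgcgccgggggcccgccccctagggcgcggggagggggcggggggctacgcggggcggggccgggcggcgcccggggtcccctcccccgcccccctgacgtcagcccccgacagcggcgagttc

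The letters were present in the windows of Tie1, Eng, Cd34 and Robo4. Robo4 held 1 copy that began 49 bases before the start, and Eng held copies at 52 and 6 bases before it. Windows of Tek and Mcam held neither form, which says only that these letters are not in those bases. Of the 36 members, 19 matched the table, with 24 start sites. AGGAAG was in 10 of these 24 windows (41.7%), against 29.5% of the 32851 windows of all genes, and CGGAAG was in 1 (4.17%), against 13.6%. Either form was in 41.7% of the members' windows and in 39.2% of all windows, so the combined share was near that of any promoter. A match is a description of the letters and not a binding site.

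Most vessel genes were above the dim range, though not all of them in every line. Levels are on the scale log2(intensity + 16), on which the lowest possible value is 4.09. Of the 36 members, 29 were above the dimmest 40% of levels in at least 1 line (a line mean over 7.71), and 7 were not: Icam2, Erg, Angpt1, Angpt2, Sele, Prox1 and Mmrn1. Of the 29, Lyve1 and Selp were below that level in 393P (and Lyve1 in 393LN at 7.69), Esm1 in 344SQ and 393P, and Cspg4 in 393LN. Among the 17 broadly endothelial members, only Icam2 was dim by that measure, and all 5 pericyte members were above it. Of all 18193 genes tested, 11391 were not dim. Such a level does not show which cells a signal came from, so the label of the set as endothelial and pericyte genes was not tested. The defining lymphatic factor Prox1 and the endothelial factor Erg were dim in all 3 lines.

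Taken as a set, the members had nearly the same level in the 3 kinds of tumour. The mean over the 36 members was 8.54, 8.43, 8.86 and 8.38 on the 344SQ arrays, 8.90, 8.40, 8.49 and 8.52 on the 393LN arrays, and 8.57, 8.74, 8.48 and 8.28 on the 393P arrays. Line means were 8.55 ± 0.21 in 344SQ, 8.58 ± 0.22 in 393LN and 8.52 ± 0.19 in 393P (SD, n = 4 each), so arrays within a line differed by more than the lines did. The 17 broadly endothelial members averaged 9.01 ± 0.27 in 344SQ, 9.04 ± 0.19 in 393LN and 8.94 ± 0.20 in 393P (SD, n = 4 each). Without Ptprb, array means of the other 16 were 8.63 to 9.24 in 344SQ, 8.89 to 9.36 in 393LN and 8.76 to 9.27 in 393P. Pericyte members averaged 8.87 ± 0.29 in 344SQ, 9.12 ± 0.20 in 393LN and 9.21 ± 0.45 in 393P. Lymphatic members averaged 8.10 ± 0.30 in 344SQ, 7.74 ± 0.22 in 393LN and 7.72 ± 0.30 in 393P. In every one of these groups the ranges of the lines overlapped.

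**Figure D1:**
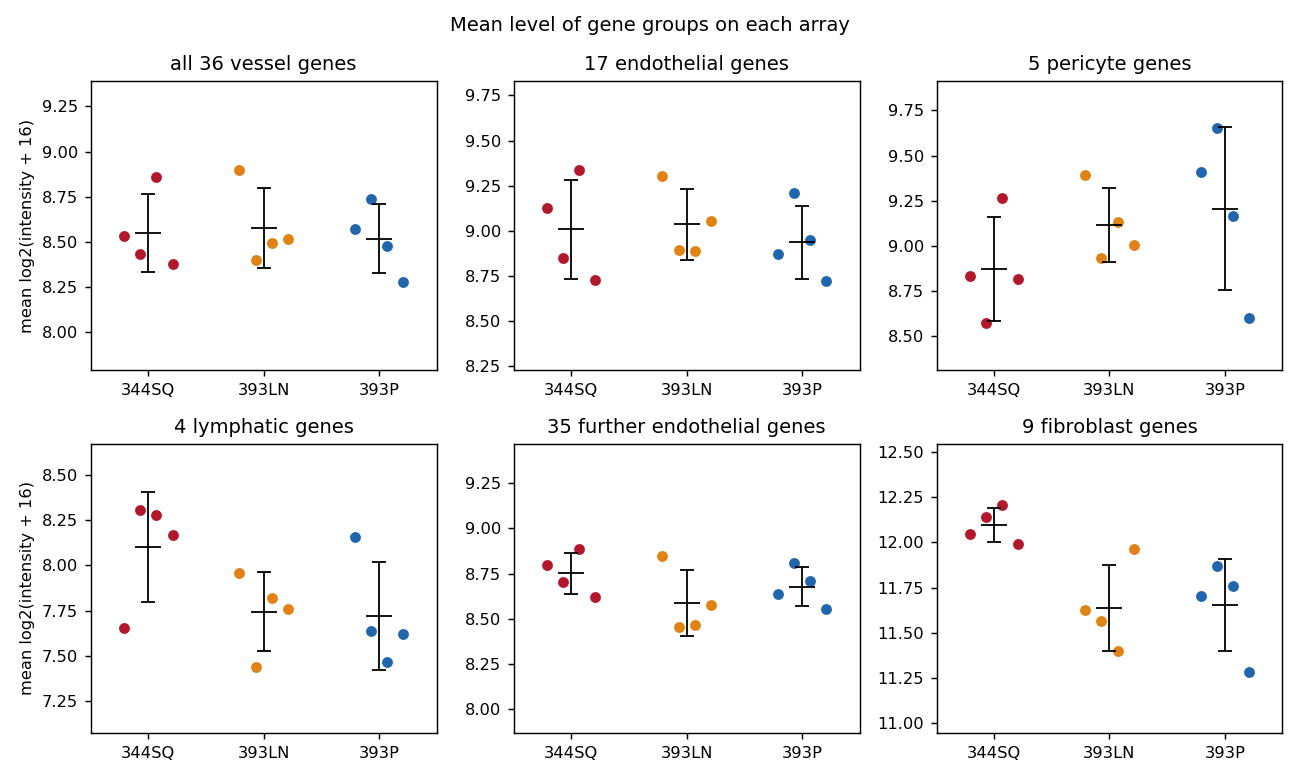
Mean level of a gene group on each array, as log2(intensity + 16), for tumours of 344SQ, 393LN and 393P. Points are arrays, in replicate order from left to right, long bars the line mean and whiskers 1 SD (n = 4). Means over all 36 members overlap between the 3 lines, whereas the 9 fibroblast genes average 12.10 in 344SQ, 11.64 in 393LN and 11.65 in 393P.

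Gene by gene, few members passed the test. Rose and fell are used only of an adjusted p under 0.05. In 344SQ against 393P, Ptprb rose and Ecscr fell, 2 of 36 members, where 10.5% of all genes tested passed (4.86% higher and 5.62% lower). In 344SQ against 393LN, Ptprb rose and Icam2 and Mcam fell, 3 of 36 members, against 10.9% of all genes (3.99% higher and 6.92% lower). In 393LN against 393P, Ecscr alone fell, 1 of 36 members, against 2.45% of all genes (1.75% higher and 0.698% lower). Of the genes called there, 71.5% were higher, against 58.7% after quantile normalization. The members' shares were thus near or below the background, and 32 members passed in none of the 3 comparisons. The median change of the 36 members was -0.03 for 344SQ over 393P, -0.08 for 344SQ over 393LN and 0.07 for 393LN over 393P, where all genes had medians of -0.00066, -0.02 and 0.01. The 4 values of a line lay wholly above or below those of the other line for few members. In 344SQ against 393P, 1 member lay wholly above (Ptprb) and 1 wholly below (Ecscr), against 8.12% and 8.62% of all genes. In 344SQ against 393LN, 1 lay above (Ptprb) and 1 below (Mcam), against 6.72% and 10.7%. In 393LN against 393P, 2 lay above (Icam2 and Ramp2) and 1 below (Ecscr), against 6.69% and 3.57%. These comparisons share arrays: 344SQ enters the first and second, and 393P the first and last.

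**Figure D2:**
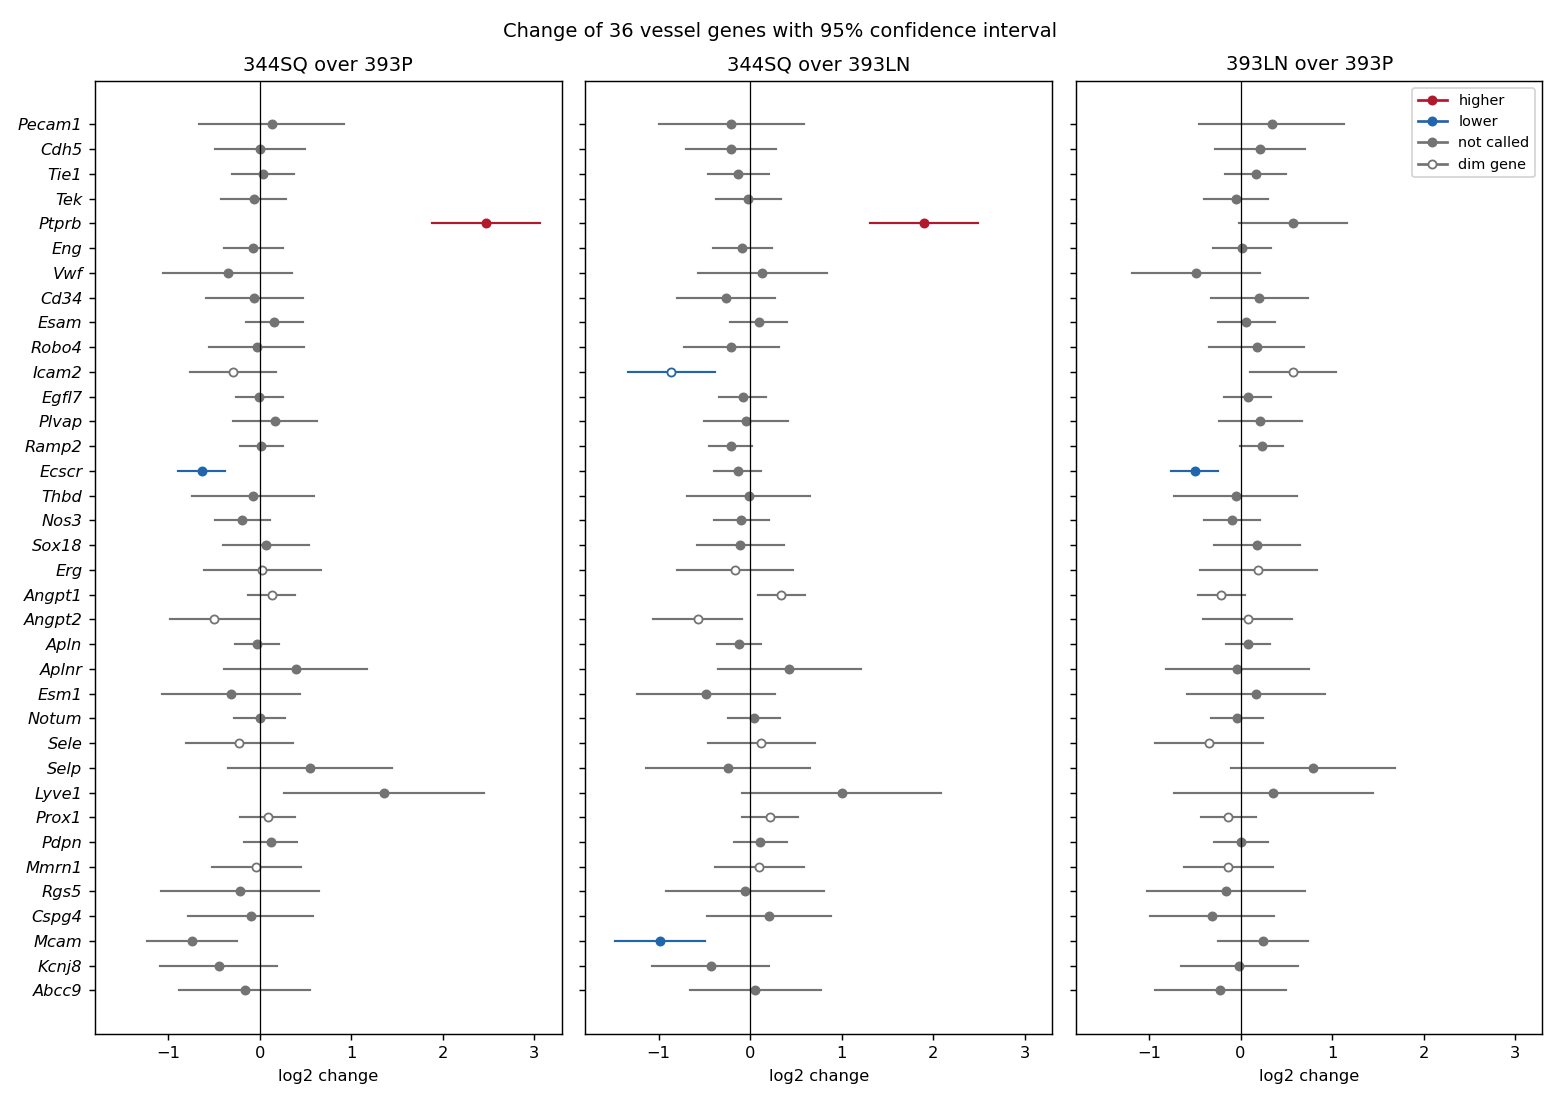
Log2 change of each of the 36 members with its 95% confidence interval, in 344SQ over 393P, 344SQ over 393LN and 393LN over 393P. Red and blue points passed an adjusted p of 0.05 as higher or lower, grey points did not, and open points are dim genes. Ptprb stands at 2.47 and 1.90 in the 344SQ comparisons, and most other intervals include 0.

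Ptprb encodes the vascular endothelial receptor phosphatase VE-PTP, which acts on Tie2 and on VE-cadherin. Its level was 10.59, 11.00, 10.85 and 10.34 on the 344SQ arrays, 8.40, 8.16, 8.93 and 9.69 on the 393LN arrays, and 8.34, 8.22, 8.21 and 8.11 on the 393P arrays. All 4 344SQ values lay above all 8 values of the 393 lines. In 393LN, replicates 1, 3 and 4 lay above every 393P value, whereas replicate 2 lay within the 393P range. Ptprb was 5.56-fold higher in 344SQ than in 393P, a log2 change of 2.47 ± 0.27 (SE, 95% interval 1.88 to 3.07, limma adjusted p = 0.000129). Against 393LN it was 3.73-fold higher, a log2 change of 1.90 ± 0.27 (SE, 95% interval 1.31 to 2.49, limma adjusted p = 0.00114). The difference of 393LN over 393P, 0.58 on the log2 scale, did not pass (95% interval -0.02 to 1.17, limma adjusted p = 0.337).

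The other probe sets of Ptprb passed in the same direction. A second, bright one was higher by 2.16 in 344SQ over 393P and by 1.71 in 344SQ over 393LN (limma adjusted p = 0.000833 and 0.00451). The remaining one, dim in all lines, was higher by 1.50 and 1.34 (limma adjusted p = 0.00472 and 0.0100). Ptprb stayed past the threshold in both comparisons when any 1 array was left out. Fibroblast genes were also higher in 344SQ on average, with array means of 11.99 to 12.21 in 344SQ, 11.40 to 11.97 in 393LN and 11.28 to 11.87 in 393P. Of these 9 genes, 0 passed the test by limma in either 344SQ comparison, against 10.5% (over 393P) and 10.9% (over 393LN) of all genes. All 9 had a positive change in both, with medians of 0.41 over 393P and 0.52 over 393LN. In each comparison 5 of the 9 had a limma p under 0.05 before adjustment. With the fibroblast mean as a covariate the Ptprb change over 393P was 1.99 (adjusted p = 0.0120), and that over 393LN was 1.40 and lost its call (adjusted p = 0.0833). Every 344SQ array lay above every 393LN and 393P array in that mean, so the covariate also takes up differences between lines. With it, calls over all genes fell from 1907 to 457 over 393P and from 1984 to 260 over 393LN. The part of fibroblasts in the Ptprb change was not tested. With the mean of 35 other endothelial genes as a covariate the Ptprb changes were 2.47 and 1.88 (adjusted p = 0.000369 and 0.00613). That mean was 8.75 in 344SQ, 8.59 in 393LN and 8.68 in 393P. Its list holds Calcrl, Flt1 and Aqp1, which themselves passed between lines. The part of vessel content in the Ptprb change was not tested.

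**Figure D3:**
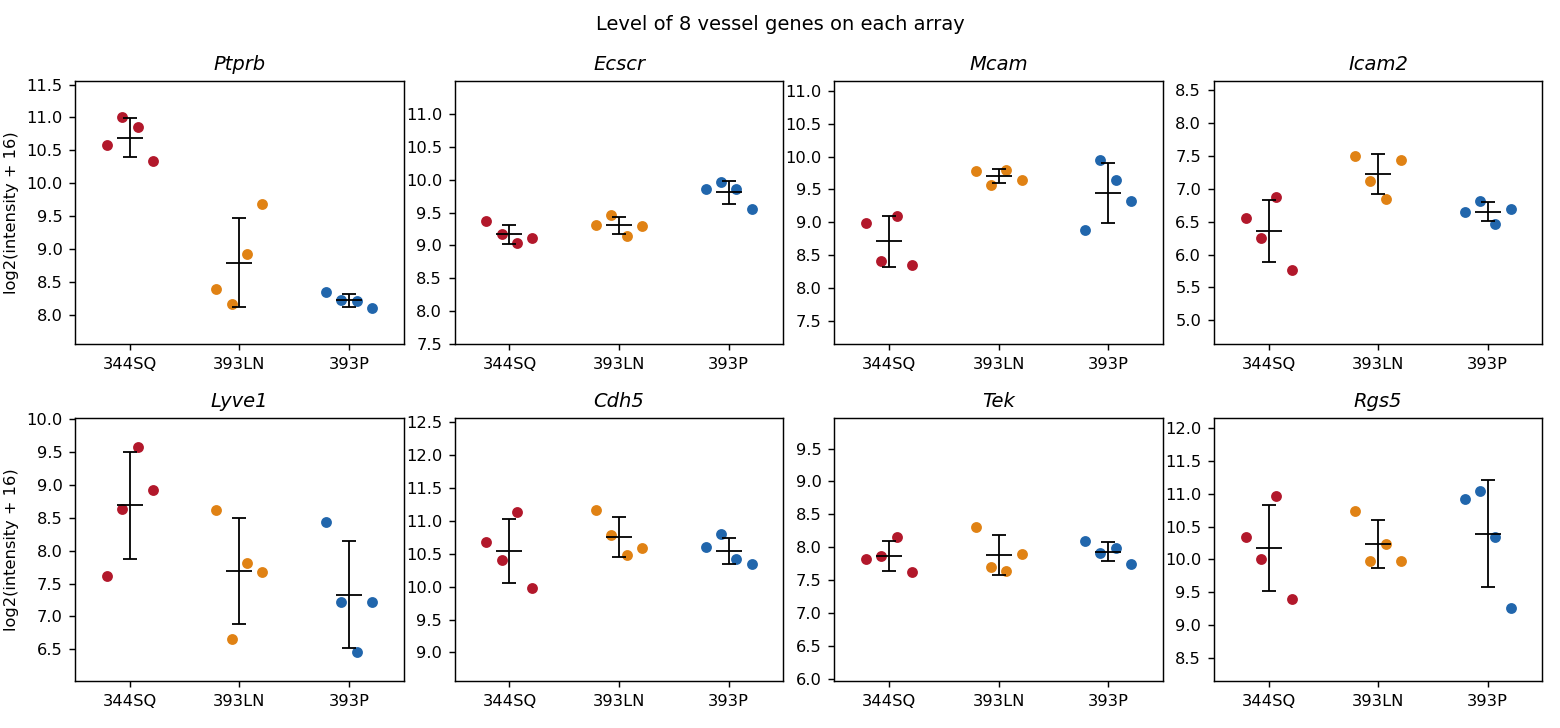
Level of 8 members on each array, as log2(intensity + 16), for tumours of 344SQ, 393LN and 393P, with each panel on its own axis range. Points are arrays, long bars the line mean and whiskers 1 SD (n = 4). Ptprb in 344SQ, at 10.34 to 11.00, lies above all values of the 393 lines, while Cdh5 and Tek overlap between lines.

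The proteins on which VE-PTP is known to act, and a relative of one of them, showed no such difference in their genes by the test. Cdh5, which encodes VE-cadherin, the adhesion protein of endothelial junctions, was at 10.68, 10.40, 11.13 and 9.97 in 344SQ, 11.16, 10.78, 10.49 and 10.59 in 393LN, and 10.60, 10.80, 10.42 and 10.35 in 393P. Its values overlapped in all 3 lines, and its change of 0.01 in 344SQ over 393P had a 95% interval of -0.49 to 0.50 (limma adjusted p = 0.994). Tek, the gene of the angiopoietin receptor Tie2, was at 7.82, 7.86, 8.16 and 7.62 in 344SQ, 8.31, 7.70, 7.63 and 7.90 in 393LN, and 8.09, 7.92, 7.98 and 7.74 in 393P. The Tek change was -0.07 in 344SQ over 393P (95% interval -0.42 to 0.28, limma adjusted p = 0.863). Tie1, the related receptor that modulates Tie2, was at 7.96, 7.67, 8.11 and 8.03 in 344SQ, 8.27, 7.97, 8.06 and 7.97 in 393LN, and 7.72, 8.30, 7.97 and 7.62 in 393P. Tie1 overlapped in the same way, with a change of 0.04 over 393P (95% interval -0.30 to 0.37, limma adjusted p = 0.930). These intervals exclude a rise of the size seen for Ptprb in 344SQ over 393P.

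Among the ligands, Angpt2, a context-dependent antagonist of Tie2 released by activated endothelium, was dim. Its level was 5.49, 5.67, 5.61 and 6.07 in 344SQ, 6.98, 6.21, 6.15 and 5.78 in 393LN, and 6.26, 6.43, 6.17 and 5.96 in 393P. On 3 of the 4 344SQ arrays the values lay below all the others, and replicate 4 lay among them. The changes were -0.50 over 393P (95% interval -0.98 to -0.01, limma adjusted p = 0.202) and -0.57 over 393LN (95% interval -1.06 to -0.09, limma adjusted p = 0.128), neither past the threshold. Angpt1, the ligand that activates Tie2, was dim as well, with a change of 0.34 over 393LN that did not pass (95% interval 0.08 to 0.59, limma adjusted p = 0.0872). Without 344SQ replicate 4, where it was lowest in its line, the Angpt1 difference passed (adjusted p = 0.0404).

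Ecscr, which encodes an endothelial surface protein involved in cell migration, was lower in 344SQ and in 393LN than in 393P. Its level was 9.37, 9.17, 9.03 and 9.11 in 344SQ, 9.31, 9.46, 9.15 and 9.30 in 393LN, and 9.86, 9.96, 9.86 and 9.55 in 393P. All 8 values of 344SQ and 393LN lay below the lowest 393P value. Ecscr fell in 344SQ to a level 1.55-fold lower than in 393P, a log2 change of -0.64 ± 0.12 (SE, 95% interval -0.89 to -0.38, limma adjusted p = 0.00501), and no single array decided that call. The change of 393LN over 393P was -0.50 ± 0.12 (SE, 95% interval -0.76 to -0.24, limma adjusted p = 0.0480). That call was lost without any one of 10 of the 12 arrays, with an adjusted p of up to 0.133. Between 344SQ and 393LN the change of -0.13 did not pass (limma adjusted p = 0.529). Only 1 probe set reports Ecscr.

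Icam2, an adhesion molecule of resting endothelium that leukocytes bind, was dim. Its level was 6.55, 6.25, 6.88 and 5.77 in 344SQ, 7.50, 7.12, 6.85 and 7.43 in 393LN, and 6.65, 6.81, 6.46 and 6.69 in 393P. The highest 344SQ value just overlapped the lowest 393LN value, and all 4 393LN values lay above all 4 393P values. Icam2 fell in 344SQ against 393LN by 0.86 on the log2 scale (95% interval -1.33 to -0.39, limma adjusted p = 0.0252). Leaving out 344SQ replicate 2, 393LN replicate 1 or 393LN replicate 4 ended the call, with an adjusted p of 0.0617 to 0.0725. The change of 393LN over 393P was 0.57 (95% interval 0.10 to 1.04, limma adjusted p = 0.216).

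On their brightest probe sets, the remaining broadly endothelial members did not differ between lines by the test. Pecam1, the junction protein CD31 used to stain vessels, was at 8.52, 7.35, 8.58 and 7.89 in 344SQ, 8.51, 8.12, 8.13 and 8.41 in 393LN, and 6.92, 8.85, 8.17 and 7.87 in 393P. Its spread within 344SQ and within 393P exceeded any difference between lines, and its interval for 344SQ over 393P reached from -0.66 to 0.93 (limma adjusted p = 0.882). Eng, a co-receptor for TGF-beta ligands, averaged 9.47 ± 0.32 in 344SQ, 9.55 ± 0.08 in 393LN and 9.53 ± 0.14 in 393P (SD, n = 4 each). Egfl7, a protein that endothelial cells secrete, averaged 10.23 ± 0.08 in 344SQ, 10.32 ± 0.09 in 393LN and 10.24 ± 0.23 in 393P. However, Egfl7 has 4 probe sets, and the most variable one had a change of -0.90 in 344SQ over 393LN that passed (limma adjusted p = 0.0470). Plvap, a component of the diaphragms of fenestrated endothelium, averaged 10.30 ± 0.37 in 344SQ, 10.35 ± 0.28 in 393LN and 10.13 ± 0.31 in 393P. Vwf, the clotting factor carrier stored in endothelium, varied from 7.61 to 9.29 over the 12 arrays, and its changes lay between -0.49 and 0.13. Ramp2, a partner of the adrenomedullin receptor, had 4 393LN values above all 4 393P values, yet its change of 0.23 did not pass (limma adjusted p = 0.329). Cd34, Esam, Robo4, Thbd and Nos3 passed in no comparison, nor did the transcription factor genes Sox18 and Erg.

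Pericyte genes are those of the mural cells that wrap capillaries. Mcam, which encodes the adhesion molecule CD146 of mural and endothelial cells, was at 8.99, 8.41, 9.09 and 8.35 in 344SQ, 9.78, 9.57, 9.80 and 9.65 in 393LN, and 8.88, 9.94, 9.65 and 9.33 in 393P. All 4 344SQ values lay below all 4 393LN values, while 393P replicate 1 lay among the 344SQ values. Mcam fell in 344SQ to a level 1.98-fold lower than in 393LN, a log2 change of -0.99 ± 0.23 (SE, 95% interval -1.48 to -0.50, limma adjusted p = 0.0163). Without 344SQ replicate 2 that call was lost (adjusted p = 0.0553). With the fibroblast mean, which also takes up differences between lines, as a covariate, the change was larger, -1.18. Its SE widened to 0.33 and the call was lost (adjusted p = 0.121). Over 393P the change of -0.74 did not pass (95% interval -1.23 to -0.25, limma adjusted p = 0.0581), but it passed in 9 of the 28 alternative settings, with a change of -0.93 to -0.74. Among them were quantile normalization (adjusted p = 0.0292), leaving out the dimmest 25% or 50% of genes (0.0411 and 0.0334), the other endothelial mean as a covariate (0.0212), and leaving out 344SQ replicate 3 (0.0475) or 393P replicate 1 (0.0158). On 393P replicate 1 the ratio of 3' to 5' actin probe sets, a measure of RNA integrity, was 1.47, against 1.04 to 1.19 on the other 11 arrays.

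Rgs5, a regulator of G protein signalling that marks pericytes, was at 10.34, 10.00, 10.97 and 9.39 in 344SQ, 10.74, 9.98, 10.23 and 9.98 in 393LN, and 10.92, 11.04, 10.34 and 9.27 in 393P. Both 344SQ and 393P spanned more than a doubling in intensity between arrays, and the change of -0.22 for 344SQ over 393P had an interval of -1.08 to 0.65 (limma adjusted p = 0.816). Kcnj8 and Abcc9, the subunits of the potassium channel of pericytes, and Cspg4, the proteoglycan NG2, also passed in no comparison. Kcnj8 averaged 8.61 ± 0.42 in 344SQ, 9.04 ± 0.58 in 393LN and 9.06 ± 0.38 in 393P (SD, n = 4 each). All 5 pericyte members had a negative change in 344SQ over 393P, from -0.74 for Mcam to -0.10 for Cspg4, with none past the threshold.

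Lymphatic members gave no call. Lyve1, a hyaluronan receptor of lymphatic endothelium that some macrophages also express, was at 7.61, 8.64, 9.58 and 8.92 in 344SQ, 8.61, 6.66, 7.82 and 7.67 in 393LN, and 8.43, 7.21, 6.46 and 7.21 in 393P. On 3 of the 4 344SQ arrays the values lay above every value of the other lines, and replicate 1 lay among them. Its change over 393P was 1.36 ± 0.50 (SE, 95% interval 0.27 to 2.45, limma adjusted p = 0.115), and leaving out 393P replicate 1 brought it past the threshold at 1.72 (adjusted p = 0.0471). Over 393LN the change was 1.0 (95% interval -0.09 to 2.09, limma adjusted p = 0.237). Prox1, the master regulator of lymphatic identity, was dim at 5.81, 6.10, 5.82 and 6.0 in 344SQ, 5.75, 5.54, 5.94 and 5.63 in 393LN, and 5.69, 6.13, 5.59 and 5.97 in 393P. Its lines overlapped, with a change of 0.09 over 393P (95% interval -0.22 to 0.39, limma adjusted p = 0.783). Pdpn, a membrane glycoprotein that fibroblasts carry too, averaged 10.25 ± 0.12 in 344SQ, 10.13 ± 0.18 in 393LN and 10.13 ± 0.23 in 393P (SD, n = 4 each), and Mmrn1 was dim. The Lyve1 pattern was thus not seen in the other 3 lymphatic members, whose changes over 393P lay between -0.03 and 0.12, though the difference between genes was not tested. Macrophage genes were read beside Lyve1. Of 8 macrophage genes, 1 of them dim, 0 rose and 2 fell (Aif1 and Tyrobp) in 344SQ against 393P, and 1 rose (Cd163) and 2 fell (the same Aif1 and Tyrobp) against 393LN. Cd163, a scavenger receptor, was at 9.42, 9.64, 10.12 and 9.77 in 344SQ, 9.04, 6.61, 8.60 and 8.14 in 393LN, and 8.66, 9.52, 8.28 and 7.84 in 393P. Like Lyve1, it was lowest on replicate 1 and highest on replicate 3 of 344SQ, and lowest on replicate 2 of 393LN. In 393P the 2 genes differed. Lyve1 was highest there on replicate 1 and lowest on replicate 3, and Cd163 was highest on replicate 2 and lowest on replicate 4. The Cd163 change was 1.64 over 393LN (limma adjusted p = 0.0429) and 1.16 over 393P (limma adjusted p = 0.149). Mrc1, the mannose receptor, averaged 11.46 ± 0.18 in 344SQ, 10.97 ± 0.50 in 393LN and 10.78 ± 0.39 in 393P (SD, n = 4 each) and did not pass. Mrc1 too was lowest on replicate 2 of 393LN, but in 344SQ it was lowest on replicate 2 and highest on replicate 4. Cd163 and Mrc1 were chosen after their values were seen. The others (Csf1r, Cd68, Adgre1, Itgam, Aif1 and Tyrobp) were highest in 344SQ on replicate 1, where Lyve1 was lowest. Of the 8 genes, 3 had a positive and 5 a negative change in each 344SQ comparison. The mean of the 8 genes was 9.46 to 10.10 in 344SQ, 9.60 to 10.16 in 393LN and 9.79 to 10.48 in 393P. The part of macrophages in the Lyve1 levels was not tested.

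Signals of sprouting and inflammation likewise gave no call. Selp, the selectin P that activated endothelium and platelets display, was at 7.66, 7.28, 8.82 and 7.97 in 344SQ, 9.36, 7.98, 7.56 and 7.79 in 393LN, and 7.76, 7.83, 6.86 and 7.07 in 393P, and Sele, the selectin E, was dim. For Selp the change of 393LN over 393P was 0.79 (95% interval -0.10 to 1.69, limma adjusted p = 0.397). Esm1, which tip cells of sprouting vessels secrete, ranged from 6.93 to 8.98, its top value on 393LN replicate 1. Aplnr, the receptor of the peptide apelin, ranged from 9.25 to 11.30, with both extremes in 344SQ, on replicates 4 and 3. Its ligand gene Apln averaged 9.62 ± 0.12 in 344SQ, 9.74 ± 0.14 in 393LN and 9.65 ± 0.14 in 393P (SD, n = 4 each). Notum, which encodes a secreted Wnt inhibitor, averaged 9.58 ± 0.26 in 344SQ, 9.54 ± 0.13 in 393LN and 9.59 ± 0.07 in 393P.

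Many members were high or low on the same arrays of a line. Of the 17 broadly endothelial members, 14 had their highest 344SQ value on replicate 3 and 12 their lowest on replicate 4, where 29.0% and 37.3% of all genes outside the dim ones did so. In 393LN, 12 of the 17 were highest on replicate 1, against 36.3% of those genes. In 393P, 13 were highest on replicate 2 and 14 lowest on replicate 4, against 32.2% and 33.0%. Of the 5 pericyte members, 4 were highest on 344SQ replicate 3 and 4 on 393P replicate 2. Their spread between arrays of a line is the spread against which each difference between lines was tested. Ptprb kept this order in part. Its lowest 344SQ value (10.34) and its lowest 393P value (8.11) were on replicate 4. Its top values were on replicate 2 of 344SQ, replicate 4 of 393LN and replicate 1 of 393P. These counts describe single arrays and carry no test, since arrays of a line share their line and members share each array.

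**Figure D4:**
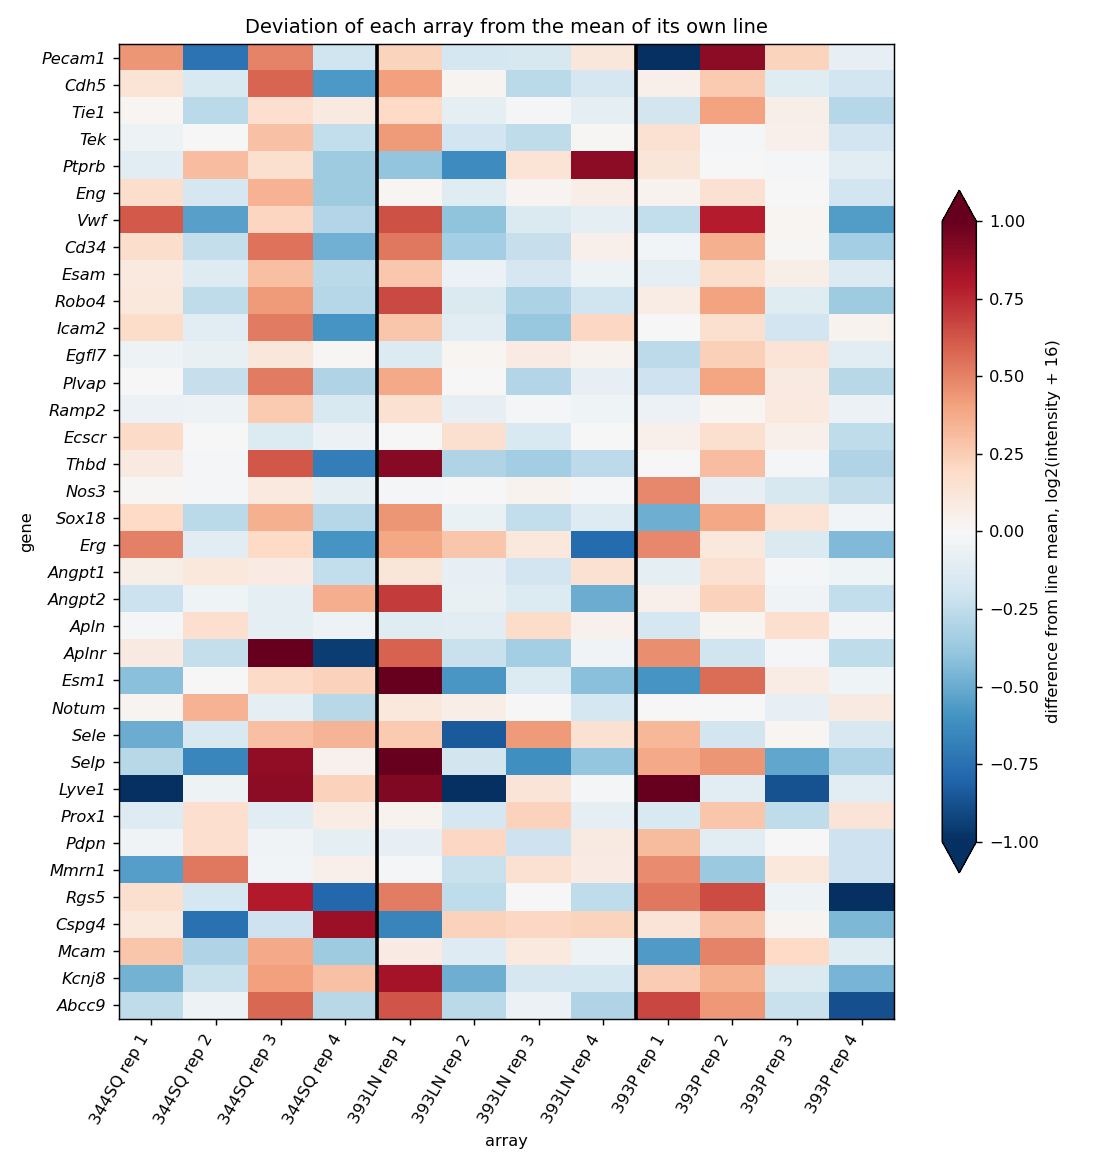
Difference of each member on each array from the mean of its own line, in log2(intensity + 16), with genes in rows and the 12 arrays in columns. Red is above the line mean and blue below, with colours held at the ends of the scale beyond 1 and -1. The columns of 344SQ replicate 3, 393LN replicate 1 and 393P replicate 2 are mostly red, and those of 344SQ replicate 4 and 393P replicate 4 mostly blue.

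Markers of other tissue matched this order on some arrays and not on others. Fibroblast means were highest in 344SQ on replicate 3 (12.21) and in 393P on replicate 2 (11.87), and lowest on 344SQ replicate 4 (11.99) and 393P replicate 4 (11.28), but in 393LN the top was replicate 4 (11.97). Macrophage means were highest on 393LN replicate 1 (10.16) and 393P replicate 2 (10.48) and lowest in 344SQ on replicate 4 (9.46), but the top of 344SQ was replicate 1 (10.10) and the lowest of 393P replicate 3 (9.79). The 6 skeletal muscle genes, 2 of them dim, averaged 6.83 to 8.47 on the 344SQ arrays, 7.21 to 9.82 on the 393LN arrays and 7.46 to 8.31 on the 393P arrays, with the top value on 393LN replicate 1. In 344SQ, however, muscle genes were lowest on replicate 3 (6.83) and at 8.24 on replicate 4, opposite to the vessel genes, and in 393P their top was replicate 3. The 4 measured fat genes, 2 of them dim, averaged 6.39 to 8.09 in 344SQ, 6.49 to 7.43 in 393LN and 6.60 to 7.45 in 393P, with the top value on 344SQ replicate 3 and the lowest on 344SQ replicate 4. Of the fat genes, Adipoq reached 10.88 on 344SQ replicate 3 and was at 6.13 on 344SQ replicate 4, and Lep was at or near the lowest possible value on all 12 arrays. Their part in the vessel pattern was not tested.

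Further vessel genes were read from other lists, beside the same shares of all genes (10.5% in 344SQ against 393P, 10.9% in 344SQ against 393LN and 2.45% in 393LN against 393P). Of 35 other endothelial genes, 1 rose and 0 fell in 344SQ against 393P, 2 rose and 0 fell against 393LN, and 0 rose and 1 fell in 393LN against 393P. The first was Calcrl, a receptor of adrenomedullin and Ramp2's partner, with a change of 0.65 (limma adjusted p = 0.0443), a call lost without any one of 9 arrays, and neither of its 2 other probe sets passed. Flt1, a VEGF receptor, was 1.32 higher and the water channel gene Aqp1 1.96 higher in 344SQ than in 393LN (limma adjusted p = 0.00497 and 0.00210), and Aqp1 fell by 1.70 in 393LN against 393P (limma adjusted p = 0.0173, lost without any one of 3 arrays). None of the other 3 Flt1 probe sets passed, and Aqp1 has no other probe set.

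Of 18 other mural and smooth muscle genes, 8 of them dim, 1 rose and 2 fell in 344SQ against 393P. Against 393LN, 2 rose and 1 fell, and none passed in 393LN against 393P. Both 344SQ shares lay above the 10.5% and 10.9% of all genes, but they rest on few genes and were not tested. Foxf2, a forkhead factor of mural cells and mesenchyme, was higher in 344SQ by 2.06 over 393P and by 1.99 over 393LN (limma adjusted p = 0.000787 and 0.00120), though it was dim and its other probe set did not pass. Notch3, the Notch receptor of mural cells, fell by 0.66 against 393P (limma adjusted p = 0.00716), and 1 other probe set of it passed in the same direction. Rgs4, a regulator of G protein signalling, was dim and fell by 0.94 against 393P and by 0.74 against 393LN (limma adjusted p = 0.00926 and 0.0315). Its call over 393LN was lost without any one of 6 arrays (adjusted p up to 0.0895), and neither of its 2 other probe sets passed. Gucy1a1, a subunit of the nitric oxide receptor, was 0.38 higher in 344SQ than in 393LN (limma adjusted p = 0.0267, lost without any one of 5 arrays), and neither of its 2 other probe sets passed.

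Of 5 other lymphatic genes measured, Itga9, an integrin subunit of lymphatic valves, alone passed, and it fell in 344SQ by 0.48 against 393P and by 0.61 against 393LN (limma adjusted p = 0.0112 and 0.00306). Neither of its 2 other probe sets passed. Of 11 measured ligands and co-receptors of the angiopoietin and VEGF systems, 1 passed: Nrp2, a co-receptor for VEGF-C, fell by 0.92 in 344SQ against 393LN (limma adjusted p = 0.0141). The Nrp2 call held without any 1 array (limma adjusted p up to 0.0452), and 2 of its 3 other probe sets passed in the same direction.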

How the data were processed

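Total RNA of 12 tumour samples was labelled with biotin and hybridised to 1-colour Affymetrix arrays, per the labels' protocols. The deposited intensities are on a linear scale. Which software made them, and with what normalization, was not given in the sources used here. Every value, from 1 to 21921, is a power of 2 whose exponent has 2 decimals (tolerance 1e-06). Log2 medians of the arrays spanned 7.19 to 7.29, and no further normalization was applied. Of 45101 probe sets, 34945 have 1 gene symbol in the platform annotation, 932 list several symbols, 9160 list none and 64 are control probe sets. A pseudocount of 16 was added before log2, which shrinks the fold of dim genes. limma 3.58.1 in R 4.3.3 (lmFit, eBayes) fitted 1 mean per line over 12 arrays, with 9 residual degrees of freedom. P-values are two-sided and adjusted by Benjamini-Hochberg over 18193 genes, or over 34945 probe sets for a member's other probe sets, with a threshold of 0.05. The number of arrays limits the precision. The script was tested on simulated data. Alternatives were other scalings, pseudocounts, probe set choices, filters, array weights, covariates and omitted arrays. Values of every array are given for members that passed and for 9 fixed ones (Pecam1, Cdh5, Tie1, Tek, Ptprb, Angpt2, Rgs5, Lyve1, Prox1), and for Selp and Cd163, chosen after their values were seen; Mrc1 was named in the same way; from other vessel lists, up to 3 passing genes per direction are named. The members and lists were chosen with earlier results of these data known.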

Additional observations from a re-analysis of the deposited data

Results flagged for a closer look

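Among 108 groups of 4 arrays (36 members in 3 lines), 3 held an array that stood apart from the other 3 of its line, where chance gives about 5% of groups. Thbd, the thrombin-binding receptor of endothelium, was 9.44 on 393LN replicate 1, against 8.18 to 8.27 on the other 393LN arrays. Cspg4 was 6.89 on that same array, against 7.76 to 7.78 on the others. Angpt1 was 7.17 on 344SQ replicate 4, against 7.48 to 7.52 on the other 344SQ arrays.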

How the results depend on the processing

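No paired analysis was possible because the labels give no replicate numbers that lines could share. Over 28 alternatives and 108 changes of the members, 2709 of 2964 values kept their direction and side of the threshold, 27 lost and 18 gained a call, and 210 changed sign, all of them past the threshold neither before nor after; 0 called changes changed sign. The 1907 genes that passed in 344SQ over 393P became 3320 with array weights, 457 with the fibroblast mean as a covariate, and 1259 (without 393P replicate 3) to 1932 with 1 array left out. The 1984 of 344SQ over 393LN became 260 with the fibroblast covariate, and 1167 (without 344SQ replicate 2) to 2481. The 446 of 393LN over 393P became 174 with only the 2 lines fitted, 883 with array weights, and 156 (without 393P replicate 3) to 438; 4 other single omissions (393LN replicates 2 and 3, 393P replicates 2 and 4) also moved it by over 1.5 times. Members passing in 344SQ over 393P were 4 (Lyve1 and Mcam added) with array weights or the actin ratio as a covariate, and 2 to 4 with 1 array left out. In 344SQ over 393LN they were 6 with the other endothelial mean as a covariate (Ptprb, Cd34, Robo4, Icam2, Thbd and Mcam), 0 with the fibroblast covariate, and 1 to 4 with 1 array left out, the 1 without 344SQ replicate 2. In 393LN over 393P they were 0 under a pseudocount of 1 or none, the most variable probe set, the 2 lines alone and each of the 3 covariates, also 0 without 344SQ replicate 4 and 393P replicate 1 (added after seeing the data), and 0 to 1 with 1 array left out. The mean of all members was 8.82 in 344SQ, 8.83 in 393LN and 8.78 in 393P when 64 was the pseudocount; with all probe sets averaged it was 8.09 in 344SQ, 8.13 in 393LN and 8.09 in 393P, and with the most variable probe set 8.32 in 393P. Quantile normalization moved the share of higher calls to 58.7% in 393LN over 393P, against 71.5%, and to 46.4% in 344SQ over 393LN, against 36.5%. The cause of these shifts was not tested. The 95% intervals of the members had a median half-width of 0.49 on the log2 scale, so smaller differences were mostly not detectable with 4 arrays a line. These intervals are not adjusted for the number of genes. Some larger differences therefore did not pass either, such as that of Mcam in 344SQ over 393P (-0.74).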
